A study of Homo sapiens with 20 samples.

Results

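The genes described here code for the cargo of dense-core secretory granules in NGP cells: the granins CHGA, CHGB, SCG2, SCG3 and SCG5, the neuropeptides NPY, GAL and VIP, and the prohormone convertase PCSK1 with its inhibitor PCSK1N. They were picked out of the annotation by gene name and are 10 of the 27697 genes tested. NGP is a human neuroblastoma cell line, and 10 samples treated with nutlin-3, a small molecule that binds MDM2, as an 8 µM racemic mixture were compared with 10 samples treated with ethanol as vehicle. Poly(A) RNA was sequenced as stranded paired-end libraries. All 20 samples come from this single line grown in 6-well culture vessels, and the study's methods call them biological replicates. The p-values set the difference between conditions against the spread between these samples, and do not extend to other cell lines.

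Granins are acidic proteins that aggregate with peptide precursors in the trans-Golgi network and drive the formation of dense-core granules, from which neuroendocrine cells release hormones, peptides and catecholamines on stimulation. Inside the granule, convertases such as PCSK1 and PCSK2 cut the precursors, carboxypeptidase E trims the ends, and further enzymes amidate or cyclize them. Neuroblastoma arises from the sympathoadrenal lineage, and chromogranin A and NPY are known markers of that lineage.

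Depth lay between 14455477 and 19532971 estimated read pairs per sample. MDM2, whose transcription rises when nutlin acts, served as a check of the labels and stood at 198.9 to 290.3 CPM (counts scaled to library size) in the vehicle samples and 4797 to 6005 in the nutlin samples. Of the 9 neuroblastoma markers, all were expressed, with a summed level of 6762 to 7490 CPM in vehicle and 6005 to 6440 in nutlin. The largest part of that sum was MYCN, at a mean of 3799 CPM in vehicle and 2865 in nutlin. The 4 Schwann cell markers summed to at most 2.96 CPM and the 3 blood cell markers to at most 5.41 CPM in any sample, with the defining SOX10 listed at 0 in all nutlin samples and CD3E at 0 in all samples. Some samples lay farther from their group than the others. Across 9880 genes, the median absolute log2 deviation from the group median was 0.0871 and 0.0849 in nutlin replicates 4 and 6, against 0.045 to 0.0566 in the other nutlin samples. It was 0.107 and 0.111 in vehicle replicates 4 and 10, against 0.0504 to 0.0774 in the other vehicle samples.

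After nutlin, 9 of the 10 granule genes were significantly differentially expressed (SDE) at 5% FDR, 5 of them higher and 4 lower, by edgeR's quasi-likelihood test with Benjamini-Hochberg adjustment. The background was high. Of all genes tested 58.8% were SDE, and of the 12797 protein-coding genes whose mean reached 1 CPM 81.9% were, so that 9 of 10 is close to the share among expressed genes. The direction was mixed among the genes. The higher ones were NPY, VIP, SCG2, CHGA and CHGB, and the lower ones PCSK1, SCG5, SCG3 and GAL. Of all genes 32.3% were SDE higher and 26.5% lower, and of the expressed protein-coding genes 31.4% and 50.6%. In 7 of the 10 genes every nutlin sample lay above or below every vehicle sample, against 28.8% of all genes and 52.2% of the expressed protein-coding genes. The median log2 fold change of the 10 genes was 0.32, beside 0.19 over all genes and -0.15 over the expressed protein-coding genes.

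**Figure D1:**
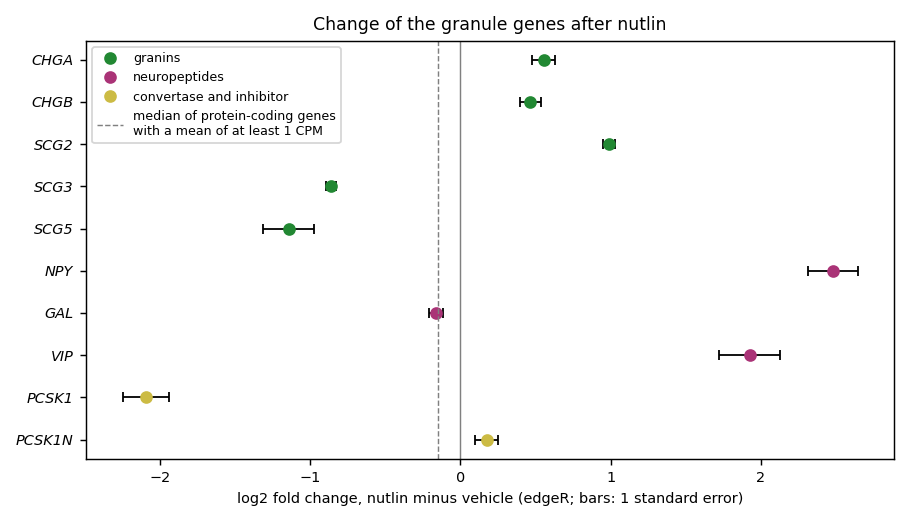
The log2 fold change (nutlin minus vehicle, edgeR) of each of the 10 genes is plotted on the x axis with bars of 1 standard error, coloured by role, and the dashed line marks the median of the expressed protein-coding genes at -0.15. NPY and VIP lie farthest to the right at 2.48 and 1.93, PCSK1 farthest to the left at -2.09, and GAL at -0.16 sits beside the dashed line.

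Promoter sequences are shown for the gene with the highest level (CHGA), for the members with the largest rise (NPY, VIP) and for the one with the largest fall (PCSK1), since these genes share a cargo pathway but moved in different directions. Of the 10 genes 7 had a promoter in the RefSeq table of GRCh38.p14, which covers 250 bases before to 50 bases after the start, and CHGB, SCG2 and GAL were not matched. The 120 bases before the start are given 5′ to 3′ on the strand of the gene. Capitals mark exact matches to the cAMP response element TGACGTCA, its shortened form TGACGT and the TATA box letters TATAAA. Variants of these letters, such as tatataag in CHGA and cataaaag in NPY, were not sought.
CHGA, chr14:92923030-92923149 (+): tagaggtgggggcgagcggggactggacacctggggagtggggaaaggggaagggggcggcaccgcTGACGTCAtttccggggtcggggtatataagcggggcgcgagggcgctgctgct
NPY, chr7:24284070-24284189 (+): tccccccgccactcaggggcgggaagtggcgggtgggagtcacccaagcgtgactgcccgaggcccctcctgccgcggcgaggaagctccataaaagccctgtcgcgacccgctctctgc
VIP, chr6:152750677-152750796 (+): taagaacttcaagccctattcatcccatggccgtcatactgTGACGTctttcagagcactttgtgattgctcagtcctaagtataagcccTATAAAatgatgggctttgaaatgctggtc
PCSK1, chr5:96433249-96433368 (-): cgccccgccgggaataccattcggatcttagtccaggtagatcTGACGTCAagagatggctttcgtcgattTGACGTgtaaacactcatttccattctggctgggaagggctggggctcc

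The full element TGACGTCA began at position -54 of CHGA and at position -77 of PCSK1, counted from the start. It was present on either strand in 1.85% of the 35116 promoters of the table. The shortened form TGACGT, which every full element also contains, stood at -79 in VIP and at -49 in PCSK1 and occurred on either strand in 7.98% of promoters. TATAAA on the gene strand stood at -30, -147 and -157 in VIP and occurred in 7.33% of promoters. PCSK1 had a second promoter in the table, for a start further into the gene (window chr5:96432111-96432410), which held TATAAA at -28 and neither form of the cAMP response element. No exact match to any of these letters was found in the windows of NPY, PCSK1N, SCG3 or SCG5, which does not show that they lack a TATA box. The element thus occurred in CHGA, which was higher after nutlin, and in 1 of the 2 promoters of PCSK1, which was lower, and these matches are descriptions of the letters and not of binding.

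CHGA and CHGB code for chromogranins A and B, the main soluble proteins of chromaffin granules. CHGA, on chromosome 14 (GRCh38, 92923150 to 92935285), ranged from 1515 CPM over a median of 1654 to 1884 in the vehicle samples and from 2047 over a median of 2287 to 3469 in the nutlin samples. The groups did not overlap, and nutlin replicates 4 (3469) and 6 (3164) lay well above the other 8. The level was 1.47-fold higher, with a log2 fold change of 0.56 ± 0.08 (SE) and an edgeR adjusted p of 2.68e-07. In bulk samples such as these, a change in the number of cells of a type and a change in RNA per cell cannot be told apart.

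CHGB, on chromosome 20 (5911510 to 5925353), went from 159.2 CPM (lowest), 164.7 (median) and 178.6 (highest) in vehicle to 178.6, 215 and 315.2 in nutlin. The highest vehicle and the lowest nutlin sample touched at the printed precision but did not cross. CHGB was 1.38-fold higher, with a log2 fold change of 0.47 ± 0.07 (SE, edgeR adjusted p = 1.56e-06). Both chromogranins varied far more among nutlin than among vehicle samples. The coefficient of variation rose from 6.96% to 19.8% for CHGA and from 3.7% to 18.7% for CHGB. Without nutlin replicates 4 and 6, it was 8.42% for CHGA and 11% for CHGB in the remaining 8 samples.

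The 2 chromogranins moved together from sample to sample. Across the 10 nutlin samples their log2 levels had a Pearson correlation of 0.97 (permutation p = 5e-05, the smallest that 20000 resamples give, adjusted p = 0.0045 over 90 pairs of these genes within a condition) and a Spearman correlation of 0.952 (permutation p = 2e-04, adjusted p = 0.018). Leaving out the 2 samples farthest from the median of CHGA left a Pearson correlation of 0.925. In the 10 vehicle samples the Pearson correlation was 0.592 (permutation p = 0.0662, adjusted p = 0.286) and the Spearman correlation 0.624 (permutation p = 0.0563, adjusted p = 0.373), and without 2 samples Pearson's value was 0.436. The difference between the conditions was not tested. The within-sample log2 ratio of CHGA to CHGB, in TPM (a level scaled to transcript length and library), was 3.85 ± 0.08 (SD, n = 10) in vehicle and 3.92 ± 0.05 in nutlin (difference 0.07, adjusted permutation p = 0.0249), with overlapping groups. Without nutlin replicates 4 and 6 that adjusted p was 0.0737, and without vehicle replicates 4 and 10 it was 0.0602.

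**Figure D2:**
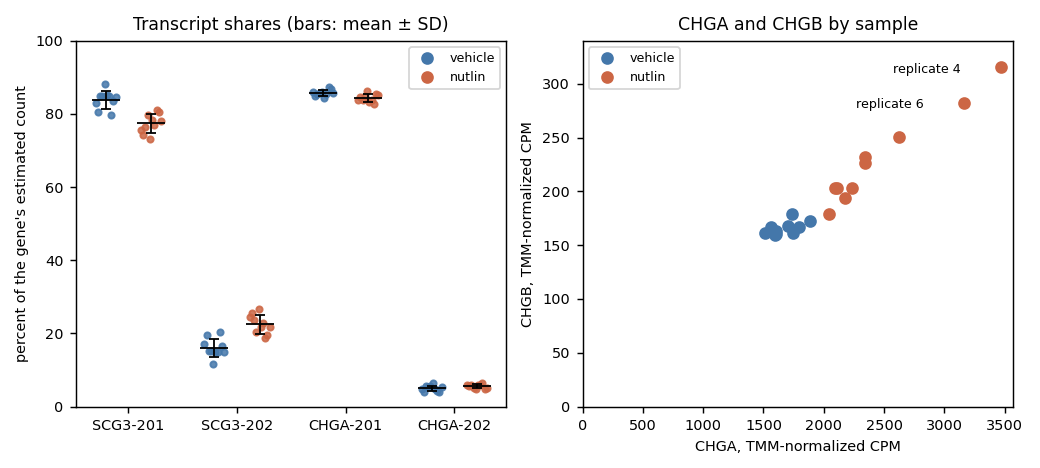
Left, the share (percent) of a gene's estimated count on each of 4 transcripts is drawn for every vehicle and nutlin sample with the mean ± SD. Right, CHGB is plotted against CHGA (TMM-normalized CPM), where nutlin replicates 4 and 6 sit at the top right end of the nutlin samples, at 3469 and 3164 CPM of CHGA.

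SCG2 codes for secretogranin II, the precursor of the peptide secretoneurin. On chromosome 2 (223596940 to 223602361), it ranged in vehicle from 167 CPM (median 178.5) to 212.4 and in nutlin from 341.1 (median 364) to 382.5. All nutlin samples lay above all vehicle samples, and nutlin replicates 4 (347.1) and 6 (360) were inside the range of the others. SCG2 was 1.99-fold higher, with a log2 fold change of 0.99 ± 0.04 (SE, edgeR adjusted p = 1.75e-19). The coefficient of variation of SCG2 in nutlin was 3.89%, the lowest of the granins that rose. Relative to CHGA in the same sample, the log2 TPM ratio of SCG2 went from -3.76 ± 0.14 (SD) to -3.33 ± 0.28, a difference of 0.43 (adjusted permutation p = 8.33e-04, n = 10 each).

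SCG3 codes for secretogranin III, which binds chromogranin A and the cholesterol-rich granule membrane. It is on chromosome 15 (51681492 to 51721026). SCG3 fell where CHGA, CHGB and SCG2 rose. It ranged from 184.2 CPM (median 196.1) to 219.1 in vehicle and from 103.6 (median 110.9) to 116.7 in nutlin. The groups were far apart, and neither held a sample that stood out. SCG3 was 1.82-fold lower, with a log2 fold change of -0.86 ± 0.03 (SE, edgeR adjusted p = 1.58e-19). The log2 TPM ratio of SCG3 to CHGA went from -3.90 ± 0.13 (SD) to -5.27 ± 0.25, with no overlap (difference -1.37, adjusted permutation p = 3.6e-05, n = 10 each).

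The fall of SCG3 was unequal between its transcripts. The longer transcript SCG3-201, of 12 exons, held 83.9% ± 2.45 (SD, n = 10) of the estimated count in vehicle and 77.4% ± 2.59 in nutlin (difference -6.52 percentage points, permutation p = 1e-04, adjusted p = 2e-04 over 4 transcripts). SCG3-202, of 11 exons, lacks 1 exon of SCG3-201 and has an earlier end of its last exon. Its share rose from 16% ± 2.46 to 22.5% ± 2.61 (permutation p = 6e-05, adjusted p = 2e-04). Ranges overlapped for both, from 79.7% to 88.3% in vehicle and from 73.2% to 81% in nutlin for SCG3-201. The mean estimated count of SCG3-201 went from 2543 to 1325 and that of SCG3-202 from 485.3 to 386.5. These shares rest on kallisto's division of reads between transcripts that have 9 exons in common.

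For CHGA the shift between transcripts was small. CHGA-201, of 8 exons, held 85.7% ± 0.849 (SD, n = 10) in vehicle and 84.4% ± 1.07 in nutlin (difference -1.34 points, permutation p = 0.0062, adjusted p = 0.00827). CHGA-202, of 7 exons, held 4.99% ± 0.748 and 5.53% ± 0.572 (permutation p = 0.0834, adjusted p = 0.0834). The remaining transcripts of CHGA did not reach the share of 5% that was required for the comparison.

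SCG5 codes for 7B2, the chaperone that keeps pro-PCSK2 from aggregating. It was weakly expressed. On chromosome 15 (32641676 to 32697098), SCG5 ranged from 1.635 CPM (median 2.46) to 3.835 in vehicle and from 0.841 (median 1.132) to 2.036 in nutlin, which stood for 23 to 58 and 14 to 31 counts. Of the nutlin samples 9 were below every vehicle sample, and nutlin replicate 11 at 2.036 was the exception. SCG5 was 2.21-fold lower, with a log2 fold change of -1.14 ± 0.17 (SE, edgeR adjusted p = 7.98e-07).

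PCSK2, the convertase that 7B2 serves, went the other way, from a mean of 13.9 to 18.6 CPM (log2 fold change 0.42 ± 0.08 SE, edgeR adjusted p = 3.24e-05). The log2 TPM ratio of SCG5 to PCSK2 went from -0.69 ± 0.66 (SD) to -2.06 ± 0.63, with overlapping groups (difference -1.37, adjusted permutation p = 4.63e-04, n = 10 each). The exons of SCG5 overlap those of SCG5-AS1 on the opposite strand, which had a mean of 0.325 CPM in vehicle and 0.192 in nutlin, and those of the read-through gene ARHGAP11A-SCG5 on the same strand, for which no value was used here. Whether the authors' kallisto runs used the strand is not given in the sources used here, so reads of SCG5 and these genes may not be fully separated.

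**Figure D3:**
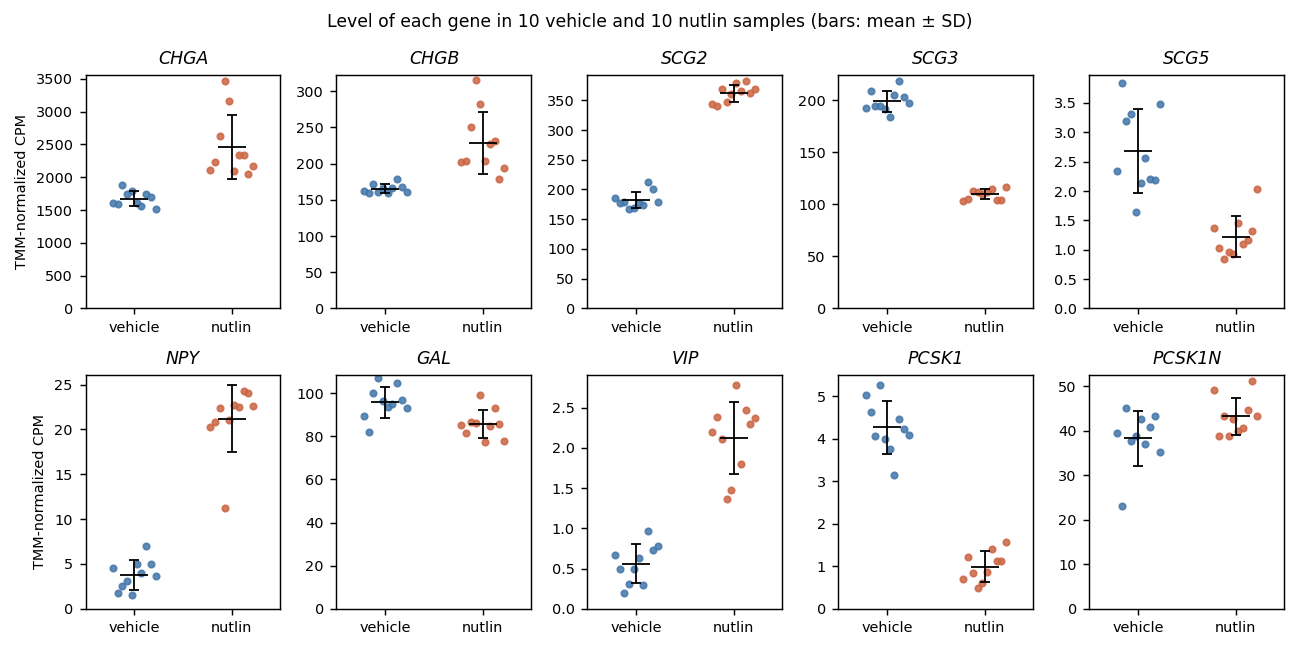
Each panel shows 1 gene in the 10 vehicle and 10 nutlin samples as TMM-normalized CPM on an axis from 0, with points for samples and bars for the mean ± SD. NPY (11.29 to 24.28 CPM in nutlin against 1.493 to 7.019 in vehicle) and PCSK1 (0.4789 to 1.576 against 3.154 to 5.262) separate fully, whereas GAL, SCG5 and PCSK1N overlap.

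NPY codes for neuropeptide Y, a peptide that sympathetic neurons release together with noradrenaline. On chromosome 7 (24284188 to 24291862), it had the largest rise of the 10 genes. NPY ranged from 1.493 CPM (median 3.791) to 7.019 in vehicle and from 11.29 (median 22.43) to 24.28 in nutlin. Nutlin replicate 4 was the low one at 11.29, while the other 9 nutlin samples were between 20.31 and 24.28. NPY was 5.57-fold higher, with a log2 fold change of 2.48 ± 0.17 (SE, edgeR adjusted p = 6.64e-14). Of its 3 transcripts, NPY-201 took most of the reads, with a mean estimated count of 56.7 in vehicle and 310.1 in nutlin. The log2 TPM ratio of NPY to CHGA went from -6.99 ± 0.74 (SD) to -4.97 ± 0.54 (difference 2.02, adjusted permutation p = 3.6e-05, n = 10 each). The groups overlapped in this ratio through nutlin replicate 4 at -6.37.

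VIP codes for vasoactive intestinal peptide, which acts through G protein-coupled receptors that raise cAMP. On chromosome 6 (152750797 to 152759765), VIP was the least abundant member in vehicle. It ranged from 0.1993 CPM (median 0.566) to 0.9633 in vehicle, or 3 to 14 counts, and from 1.368 (median 2.245) to 2.777 in nutlin, or 20 to 42 counts. The groups did not overlap, and the lowest nutlin samples were replicates 4 (1.368) and 6 (1.481). VIP was 3.8-fold higher, with a log2 fold change of 1.93 ± 0.20 (SE, edgeR adjusted p = 1.43e-09). The rise lay mostly in VIP-202, whose mean estimated count went from 4.72 to 27.2, beside 3.23 to 4.93 for VIP-201. LINC02840, which overlaps VIP on the opposite strand, was at 0 in both conditions.

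GAL codes for galanin, a peptide that mostly inhibits release from neurons. On chromosome 11 (68683779 to 68691175), it ranged from 82.17 CPM (median 95.61) to 107 in vehicle and from 77.17 (median 85.44) to 99.09 in nutlin. The groups overlapped widely, and only 1 nutlin sample exceeded the vehicle median. GAL was 1.12-fold lower, with a log2 fold change of -0.16 ± 0.05 (SE, edgeR adjusted p = 0.00339), close to the median of -0.15 over expressed protein-coding genes. With genes limited to those that passed edgeR's filterByExpr, the log2 fold change was -0.08 and the adjusted p 0.0954, so the call on GAL was lost. Relative to CHGA, the log2 TPM ratio of GAL fell from -2.83 ± 0.10 (SD) to -3.55 ± 0.22 with no overlap (difference -0.72, adjusted permutation p = 3.6e-05, n = 10 each).

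PCSK1 codes for the convertase PC1/3, which makes the first cuts in many peptide precursors. It fell more than any other member. On chromosome 5 (96390333 to 96434143), PCSK1 ranged from 3.154 CPM (median 4.158) to 5.262 in vehicle, or 52 to 86 counts, and from 0.4789 (median 0.9858) to 1.576 in nutlin, or 7 to 24 counts. Every nutlin sample was below every vehicle sample in CPM, with replicates 4 (0.4789) and 6 (0.617) lowest. In TPM the ranges crossed, at 0.860 to 2.19 in vehicle and 0.2 to 1.08 in nutlin. PCSK1 was 4.27-fold lower, with a log2 fold change of -2.09 ± 0.15 (SE, edgeR adjusted p = 5.66e-13). With an offset for effective length the log2 fold change was -1.83 (edgeR adjusted p = 1.18e-07).

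PCSK1N codes for proSAAS, a granin-like precursor whose C-terminal peptide inhibits PC1/3. On the X chromosome (48831096 to 48835610), it ranged from 23.08 CPM (median 39.18) to 45.11 in vehicle and from 38.79 (median 43.06) to 51.18 in nutlin. The groups overlapped, and vehicle replicate 4 at 23.08 was the low one. The log2 fold change was 0.18 ± 0.08 (SE) and the edgeR adjusted p 0.0518, just outside the threshold. PCSK1N passed the threshold in 7 of the alternative analyses, among them DESeq2 (log2 fold change 0.22, adjusted p = 0.014), and the adjusted p ranged from 0.00577 to 0.0813 over 12 alternatives. Without vehicle replicates 4 and 10 the log2 fold change was 0.14 (edgeR adjusted p = 0.0364).

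At the level of RNA, PCSK1 thus fell against PCSK1N, which codes for its inhibitor, and against PCSK2, which codes for its sister enzyme. The log2 TPM ratio of PCSK1 to PCSK1N went from -5.04 ± 0.60 (SD) to -7.03 ± 0.62 with no overlap (difference -1.99, adjusted permutation p = 3.6e-05, n = 10 each). For PCSK1 to PCSK2 it went from -1.90 ± 0.54 to -4.20 ± 0.86 (difference -2.30, adjusted permutation p = 3.6e-05, n = 10 each), with some overlap. The unadjusted p behind 3.6e-05 is 2e-05, the smallest that 100000 resamples give. VIP relative to CHGA rose from -11.47 ± 0.71 to -10.01 ± 0.58 (difference 1.46, adjusted permutation p = 2.4e-04, n = 10 each), and with a pseudocount of 1 TPM the difference was 0.308 (adjusted permutation p = 0.0603). In all, 9 ratios were compared, each p adjusted over these.

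**Figure D4:**
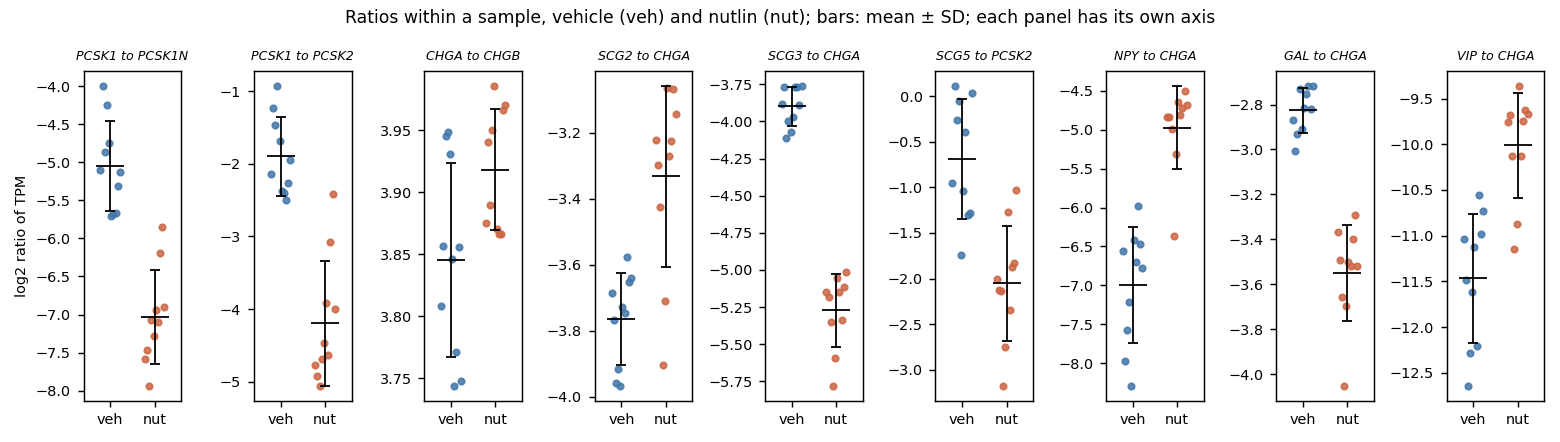
Each of 9 panels shows the log2 ratio of the TPM of a gene pair within a sample, for 10 vehicle (veh) and 10 nutlin (nut) samples, with the mean ± SD and an axis of its own that does not start at 0. PCSK1 to PCSK1N, SCG3 to CHGA and GAL to CHGA separate the conditions fully, while nutlin replicate 4 lies apart at -6.37 in NPY to CHGA.

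On the scale of TPM, which corrects for transcript length, the levels of the 10 genes spread over more than 3 orders of magnitude. CHGA was first in both conditions, at 1072 ± 59.9 TPM (SD, n = 10) in vehicle and 1577 ± 279.5 in nutlin, where it ranked 111 and 79 among 19563 protein-coding genes. In vehicle it was followed by GAL (151.2 ± 7.87), SCG2 (79.0 ± 5.51), CHGB (74.6 ± 4.14), SCG3 (72.0 ± 4.95), PCSK1N (45.3 ± 7.18), NPY (9.26 ± 3.94), SCG5 (3.31 ± 1.11), PCSK1 (1.42 ± 0.44) and VIP (0.413 ± 0.167). In that order SCG2, CHGB and SCG3 did not differ beyond their ranges, nor did NPY from SCG5 or SCG5 from PCSK1.

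In nutlin the order of TPM levels changed. SCG2 (154.8 ± 6.79) and GAL (133.3 ± 7.04) came after CHGA with overlapping ranges, then CHGB (104.2 ± 17.3), PCSK1N (51.0 ± 5.58), NPY (50.6 ± 8.91), SCG3 (40.4 ± 2.11), SCG5 (1.82 ± 0.708), VIP (1.55 ± 0.363) and PCSK1 (0.437 ± 0.260). NPY moved from rank 7643 to rank 1996 among protein-coding genes, and PCSK1 from 11297 to 13605. GAL and CHGB, PCSK1N and NPY, NPY and SCG3, SCG5 and VIP, and VIP and PCSK1 had overlapping ranges. The summed level of the 10 genes was 1509 ± 67.1 TPM (1417 to 1583) in vehicle and 2115 ± 282.9 (1897 to 2817) in nutlin, of which CHGA held 71.1% ± 1.41 and 74.2% ± 2.82. The 3 neuropeptides together held 10.7% ± 0.720 of this sum in vehicle and 8.92% ± 1.28 in nutlin, and GAL was the most abundant of them in both.

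Genes that act with these members were listed by function. Of 12 precursor processing enzymes 7 were SDE higher and 2 lower, a median log2 fold change of 0.32, beside 32.3% higher and 26.5% lower among all genes and 31.4% and 50.6% among expressed protein-coding genes. CPE, which codes for carboxypeptidase E, had the largest rise, from a mean of 64.96 to 212.8 CPM (log2 fold change 1.71 ± 0.04 SE, edgeR adjusted p = 1.95e-25). Among the convertases FURIN (0.70), PCSK4 (0.61), PCSK2 (0.42), PCSK7 (0.33) and PCSK6 (0.27) were SDE higher on the log2 scale, as was the carboxypeptidase CPD (0.25). PCSK1 was thus the only convertase of the 7 measured that was SDE lower, and PCSK5 was not SDE (0.32, edgeR adjusted p = 0.105). The lower ones were PAM (-0.57), which amidates peptide ends, and QPCTL (-0.54), which cyclizes N-terminal glutamine. CPZ did not pass the test (-0.23, edgeR adjusted p = 0.218). The call on PCSK7 was lost with an offset for effective length (0.225, edgeR adjusted p = 0.107), that on PCSK4 over the 16 samples with shared replicate numbers (0.514, edgeR adjusted p = 0.106), and without nutlin replicates 4 and 6 PCSK5 (0.446, edgeR adjusted p = 0.0221) and CPZ (-0.375, edgeR adjusted p = 0.0337) passed the test. PCSK5 also passed with filterByExpr (0.401, edgeR adjusted p = 0.0402). With the offset for effective length, the log2 fold change of CPD was 0.772 (edgeR adjusted p = 3.77e-09).

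Of 38 other secreted granule peptides 30 were tested. Of these 9 were SDE higher, 5 lower and 16 neither, beside 32.3% higher and 26.5% lower among all genes tested. Of the 12 whose mean reached 1 CPM in a condition, 5 were higher, 4 lower and 3 neither. Among expressed protein-coding genes 31.4% were SDE higher and 50.6% lower. VGF, a granin-like precursor, went from a mean of 50.87 to 224.2 CPM (log2 fold change 2.14, edgeR adjusted p = 2e-19), and TAC3, the precursor of neurokinin B, from 0.168 to 2.09 CPM (3.56, edgeR adjusted p = 2.96e-15). NMU, the precursor of neuromedin U, fell from 8.13 to 0.802 CPM (-3.33, edgeR adjusted p = 2.52e-19). NPPA, which codes for atrial natriuretic peptide, went from 0.822 to 1.48 CPM (0.84, edgeR adjusted p = 0.00608), a call that was lost over the 16 samples with shared replicate numbers (0.683, edgeR adjusted p = 0.0576). NPPC, the precursor of C-type natriuretic peptide, averaged under 1 CPM over all samples and was picked after its values were seen. It changed more than NPPA, from 0.336 to 1.51 CPM (2.13, edgeR adjusted p = 6.54e-10). Other peptide precursors thus moved in both directions, as NPY, VIP and GAL did.

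Receptors for the members' peptides were few. Of the 12 listed, 5 had a mean of at least 1 CPM in a condition. Of 10 tested, 3 were SDE higher and 1 lower. Among all genes 58.8% were SDE, 32.3% higher and 26.5% lower. VIPR2 and ADCYAP1R1, both of which bind VIP or the related PACAP, went from a mean of 15.75 to 44.68 CPM (log2 fold change 1.5 ± 0.06 SE, edgeR adjusted p = 5.08e-20) and from 18.99 to 54.92 CPM (1.53 ± 0.15 SE, edgeR adjusted p = 1.49e-10). The NPY receptor NPY2R went from 27.63 to 18.14 CPM (-0.61, edgeR adjusted p = 2.58e-12), and NPY4R and NPY5R were at 0 in all samples. The galanin receptor GALR1 did not pass the test at 18.61 and 18.03 CPM (-0.05, edgeR adjusted p = 0.578), but did with an offset for effective length (-0.339, edgeR adjusted p = 0.0273). GPR83, a receptor of a proSAAS peptide, went from 0.999 to 2.60 CPM (1.38, edgeR adjusted p = 1.07e-09). So VIP and VIPR2 rose together, whereas NPY rose and NPY2R fell.

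All 8 tested enzymes of peptide breakdown were SDE, 4 higher and 4 lower, beside 58.8% SDE among all genes. Of the 6 whose mean reached 1 CPM in a condition, 2 were higher and 4 lower. Among expressed protein-coding genes 81.9% were SDE, 31.4% higher and 50.6% lower. Of the 4 higher enzymes, ECE2 (a mean of 0.0131 CPM in vehicle and 0.101 in nutlin) and ANPEP (0.191 and 0.478) were sparse. MME, the membrane peptidase neprilysin, fell from a mean of 8.60 to 0.403 CPM (log2 fold change -4.39 ± 0.19 SE, edgeR adjusted p = 2.98e-18). ACE rose from 31.67 to 61.72 CPM (0.96, edgeR adjusted p = 3.65e-14), while NLN (-0.63) and IDE (-0.62) fell. The peptidases thus moved in both directions, as the members did.

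Of 35 genes of the dense-core vesicle machinery 18 were SDE higher, 9 lower and 8 neither, with a median log2 fold change of 0.10. Among expressed protein-coding genes 81.9% were SDE, 31.4% higher and 50.6% lower, with a median of -0.15. The vesicular monoamine transporter SLC18A1, which loads granules with catecholamines, went from a mean of 2.05 to 8.72 CPM (2.08 ± 0.10 SE, edgeR adjusted p = 5.61e-18). Its relative SLC18A2 was at 0 in 9 vehicle samples and at 0.902 CPM (15 counts) in vehicle replicate 12, and ranged from 1.19 to 3.03 CPM in nutlin. The fitted log2 fold change of 4.37 ± 0.48 (SE, edgeR adjusted p = 3.22e-09) thus rests on 1 vehicle sample. Against a floor of 3 counts per library in the other 9 vehicle samples alone, the nutlin mean of SLC18A2 was at least 10.9-fold higher. That bound leaves out vehicle replicate 12, whose 0.902 CPM was not far below the lowest nutlin sample at 1.19. HID1, which acts in granule maturation, went from 0.488 to 1.85 CPM (1.91, edgeR adjusted p = 1.42e-09). RAB27B, which tethers granules for release, fell from 4.73 to 0.621 CPM (-2.92, edgeR adjusted p = 1.79e-16). Most of the vesicle genes changed far less than these 4.

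**Figure D5:**
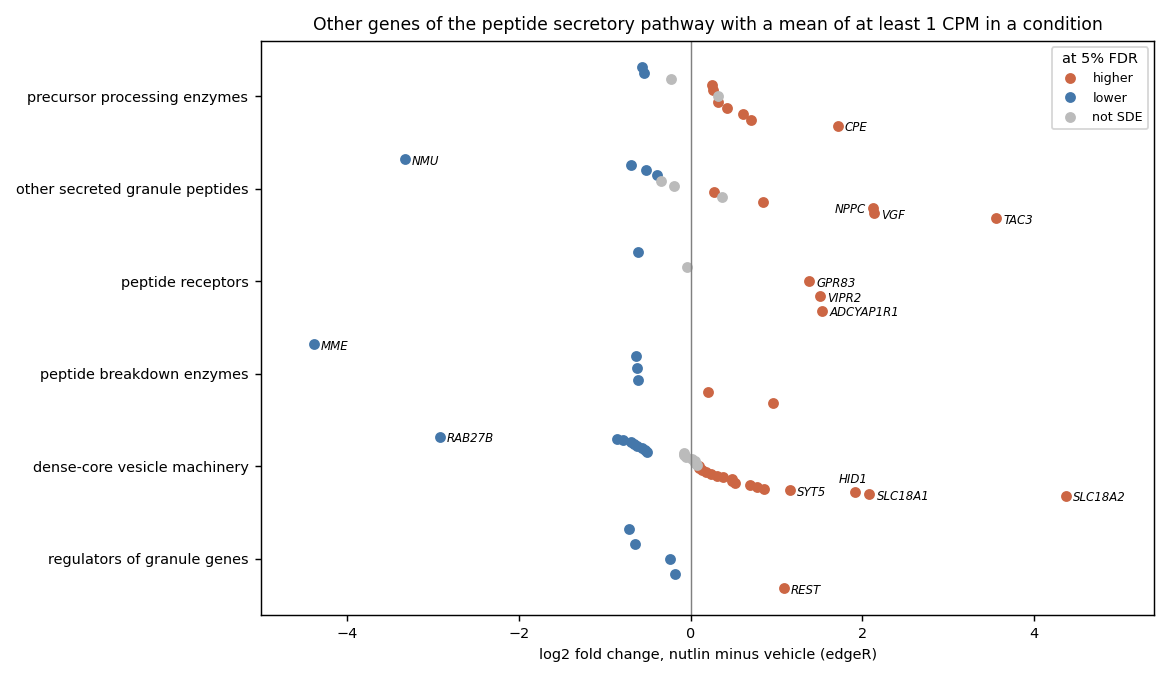
The log2 fold change (x axis, nutlin minus vehicle, edgeR) of the listed genes reported here whose mean reached 1 CPM in a condition is drawn by function, coloured by its call at 5% FDR. TAC3 (3.56) stands out among the higher genes, as does SLC18A2 (4.37), whose vehicle level rests on 1 sample, and MME (-4.39), NMU (-3.33) and RAB27B (-2.92) among the lower.

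All 6 regulators of granule genes on the list were SDE, 1 higher and 5 lower, beside 31.4% higher and 50.6% lower among expressed protein-coding genes. REST, a repressor of neuronal and granin genes outside the nervous system, went from a mean of 0.718 to 1.54 CPM (log2 fold change 1.09 ± 0.22 SE, edgeR adjusted p = 1.05e-04). Its corepressor RCOR1 fell from 66.35 to 40.21 CPM (-0.72, edgeR adjusted p = 1.03e-18). INSM1, a factor of neuroendocrine differentiation, fell from 18.14 to 11.59 CPM (-0.64, edgeR adjusted p = 4.61e-08). Whether any of these factors acted on the 10 granule genes was not tested.

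Markers of cell identity were also compared. Of all genes tested 32.3% were SDE higher and 26.5% lower, and of expressed protein-coding genes 31.4% and 50.6%. Of the 9 neuroblastoma markers 3 were SDE higher, 4 lower and 2 neither. Among 8 mesenchymal markers 5 were higher, 2 lower and 1 neither, while their summed level went from 1042 to 1168 CPM in vehicle to 689.4 to 882.3 CPM in nutlin. Most of that sum was VIM, at a mean of 1045 and 705.1 CPM, and the 5 higher markers were FOSL1, YAP1, COL1A1, PRRX1 and CD44. YAP1 among them averaged only 0.0191 CPM in vehicle and 0.729 in nutlin. The 4 Schwann cell markers summed to 1.20 to 2.96 CPM in vehicle and 0.853 to 1.78 in nutlin, with 1 of 3 tested SDE lower. The 3 blood cell markers summed to 0.284 to 1.5 CPM in vehicle and 3.08 to 5.41 in nutlin, with 1 of 2 tested SDE higher, the lysosomal gene CD68. The part of these shifts in the changes of the granule genes was not tested.

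Genes whose sample-to-sample pattern was most like that of the granins were sought among genes whose mean reached 10 CPM, by the Pearson correlation of log2 CPM after the mean of each condition was subtracted, over 20 samples. For CHGA it was REC8 (0.932), for CHGB JAKMIP1 (0.897), for SCG2 RGS2 (0.837), for SCG3 DNTTIP2 (0.867) and for SCG5 CENPC (0.757). Samples that stand apart, such as nutlin replicates 4 and 6, weigh on these values. Each is the highest value over all genes searched, and how high the best match of an unrelated gene would be was not tested. For CHGA, 6 genes exceeded 0.9. These values describe these libraries only.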

How the data were processed

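RNA-seq of 20 NGP samples was analysed. The authors quantified reads with kallisto 0.42.4 on Ensembl transcripts of hg38 (GRCh38), per the labels and methods, and deposited an estimated count, an effective length (a score in bases) and a TPM value for each of 198968 transcripts, with no normalization of the counts. By transcript ID without version, 191106 transcripts (96.05%) were matched to GENCODE 44, and 7862 were left out. The share of a sample's counts kept was 96.66% to 96.78% in vehicle and 95.71% to 95.95% in nutlin. Estimated counts were summed per gene and rounded. Protein-coding and lncRNA genes that reached a total of 1 count in each condition were fitted together in edgeR 4.0.16 (R 4.3.3), with TMM normalization, the quasi-likelihood F-test, a condition term alone and p-values adjusted by Benjamini-Hochberg (5% FDR). The SE is the log2 fold change divided by the square root of F. CPM are TMM-normalized. Transcript shares and log2 TPM ratios were compared by two-sided permutation tests with 100000 resamples in Python 3.11.15. The fit was tested on simulated data. Members, lists and tests were chosen with earlier results of these data known. Named genes were the members, MDM2, processing enzymes and receptors with a mean of at least 1 CPM in a condition, the 4 largest changes of other lists among SDE genes averaging at least 1 CPM over all samples and the gene most alike to each member, of which those of the marker lists, the neuropeptides, PCSK1 and PCSK1N, and 1 regulator, are not reported here. Alternatives were DESeq2 1.42.0, its size factors, limma 3.58.1 voom, other filters, gene types, an effective-length offset, 1% FDR and a replicate block. Leaving out the samples that stand apart was added after the data were seen.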

Additional observations from a re-analysis of the deposited data

Results flagged for a closer look

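In 4 of 46 groups of 10 values, 1 sample stood far from the rest of its group, 3 different samples in all, and chance alone is expected to do this in about 1 in 20 groups. Each is given with its gap to the nearest sample as a fraction of the whole range of the group, which exceeded Dixon's 95% critical value. NPY in nutlin replicate 4 was lowest at 11.29 CPM, with the nearest sample at 20.31 and a gap of 0.694 of the range. The log2 TPM ratio of NPY to CHGA was lowest in the same replicate at -6.37, with the nearest at -5.31 and a gap of 0.566. PCSK1N was lowest in vehicle replicate 4 at 23.08 CPM, with the nearest at 35.13 and a gap of 0.547. SCG5 was highest in nutlin replicate 11 at 2.036 CPM, with the nearest at 1.455 and a gap of 0.487. Nutlin replicate 4 and vehicle replicate 4 are also among the 4 samples whose whole profile lay farther from their group.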

How the results depend on the processing

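Of 759 values recomputed under the alternatives, 735 kept their direction and their side of the threshold, 10 lost and 12 gained a call, 2 counts moved by more than 1.5 times and 0 reversed. The number of granule genes SDE higher was 5 or 6 and SDE lower 3 or 4 in all fits. With filterByExpr (16347 genes fitted), 2 peptide breakdown enzymes were SDE higher in place of 4, and with the effective-length offset 2 peptide receptors were SDE lower in place of 1. With a pseudocount of 1 TPM the difference in the VIP to CHGA ratio was 0.308 (adjusted permutation p = 0.0603). Without nutlin replicates 4 and 6 the CHGA-202 share rose by 0.715 points (adjusted permutation p = 0.0351) and the CHGA to CHGB ratio differed by 0.06, and without vehicle replicates 4 and 10 by 0.065. The causes were not tested.

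Vehicle and nutlin shared 8 replicate numbers, but samples with the same number did not deviate together (correlations from -0.048 to 0.077), so the numbers were not taken to pair samples. With the replicate block over these 16 samples, 6 granule genes were SDE higher and 4 lower (PCSK1N 0.21, edgeR adjusted p = 0.0107), against 5 and 4 in the same samples without it, and the CHGA-201 share differed by -1.32 points (exact sign-flip test, adjusted p = 0.0521). Counts limit VIP, SCG5 and PCSK1, which had 3 to 86 counts a sample. Each single replicate was not left out in turn, since groups held 10 samples.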
